A study of Rattus norvegicus with 2 samples.

Results

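The hypothalamic peptide genes *Oxt*, *Avp*, *Pmch* and *Hcrt* (identifiers ENSRNOG00000021225, ENSRNOG00000021229, ENSRNOG00000004632 and ENSRNOG00000018892), were followed through every cell barcode of a droplet-based single-cell RNA sequencing experiment on the rat hypothalamus. They are 4 of the 32883 genes listed, and they were chosen by measured values of these libraries: their UMIs per neuron, the concentration of these UMIs in few cells, and their level in non-neuronal cell types. All of these are therefore given as descriptions, with no test. The tissue, which included the anteroventral periventricular nucleus (AVPV) and the arcuate nucleus (ARC), came from female Sprague Dawley rats aged 4 weeks (postnatal day, PND, 29) and was dissociated with collagenase. SC300 rats received 300 µg of estradiol benzoate (EB) in a silicone capsule filled with sesame oil, implanted on PND 0.5, as the study's methods give it. The label of that library names EB, whereas the design text of the series gives only the oil as the content of the SC300 capsule. For Control rats the study's methods give an oil-filled capsule, whereas the labels give them as intact. Each of the 2 libraries was made from the pooled tissue of 3 rats, so that there are no replicates, the variation between rats is unknown, and no test between Control and SC300 was possible. Differences between the libraries below may therefore reflect which cells were captured as well as the treatment, and these cannot be told apart.

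*Oxt* encodes the precursor of oxytocin and *Avp* that of vasopressin. Both peptides are made by magnocellular neurons of the paraventricular and supraoptic nuclei and released from the posterior pituitary, and *Avp* is also made by neurons of the suprachiasmatic nucleus, the circadian clock. *Pmch* encodes the precursor of melanin-concentrating hormone and *Hcrt* that of the orexins, which are made by separate neurons of the lateral hypothalamus that take part in feeding and wakefulness. Such neurons hold very large amounts of peptide mRNA. In droplet methods RNA released from broken cells can enter any droplet, so a few molecules of an abundant transcript can be counted in a cell that does not make it.

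Molecules were counted by their unique molecular identifiers (UMIs), tags that let repeated reads of 1 molecule be counted once. Because sequencing started at the 3′ end, counts do not scale with gene length. The libraries held 52004789 UMIs in 4488 Control barcodes and 57013099 UMIs in 4524 SC300 barcodes, with medians of 7697 and 8022 UMIs per barcode. Only 9 barcode sequences occurred in both libraries, and the highest count of any of the 4 genes among them was 100 *Avp* UMIs in SC300, while the same set of barcodes in Control held at most 1 *Avp* UMI. Levels are given as UMIs per barcode or as CPM, the UMIs of the gene scaled to counts per 1000000 UMIs of the group of barcodes. Values in parentheses are exact 95% intervals (Poisson for levels, binomial for shares by the Clopper-Pearson method and for ratios conditional on their sum) and cover counting error only.

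Barcodes were called neurons when at least 4 of 6 neuron genes (*Snap25*, *Syt1*, *Stmn2*, *Snhg11*, *Celf4*, *Rbfox3*) were detected, which gave 380 Control and 361 SC300 barcodes. Non-neuronal types needed at least 3 markers of 1 list, more than of any other list, and at most 1 neuron gene. They comprised 2948 Control and 3053 SC300 barcodes, mostly astrocytes (1252 and 1381), microglia (420 and 404), mature oligodendrocytes (356 and 444) and endothelial cells (322 and 252). A further 1160 and 1110 barcodes passed no gate. In the neuron gate *Snap25* was detected in 99.2% of Control and in 100% of SC300 barcodes, against 9.02% and 9.76% of the non-neuronal barcodes, whose gate admits at most 1 neuron gene. The tanycyte gate took only 1 and 3 barcodes and is not described. The ependymal gate (209 and 132 barcodes) also held barcodes with the tanycyte marker *Crym*, 152 in Control and 95 in SC300, so its barcodes are not 1 cell type.

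*Oxt* and *Avp* are neighbours on chromosome 3 of the RefSeq assembly GRCr8, with 0 annotated genes between them. By the rule for high barcodes given below, 1 Control and 3 SC300 barcodes were high for both genes. The Control one held 32991 *Avp* UMIs, the most of any barcode. The 250 bases before the start of each gene are shown because the genes are neighbours, in the direction of transcription. They lie at chr3:138235504-138235753 on the plus strand for *Oxt* and at chr3:138248523-138248772 on the minus strand for *Avp*. *Pmch* had no entry in the table of promoters.
Oxt: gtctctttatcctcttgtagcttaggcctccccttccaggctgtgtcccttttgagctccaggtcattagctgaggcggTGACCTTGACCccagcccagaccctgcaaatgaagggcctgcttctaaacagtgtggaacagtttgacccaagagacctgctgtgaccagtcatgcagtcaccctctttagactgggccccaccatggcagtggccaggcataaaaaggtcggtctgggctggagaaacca
Avp: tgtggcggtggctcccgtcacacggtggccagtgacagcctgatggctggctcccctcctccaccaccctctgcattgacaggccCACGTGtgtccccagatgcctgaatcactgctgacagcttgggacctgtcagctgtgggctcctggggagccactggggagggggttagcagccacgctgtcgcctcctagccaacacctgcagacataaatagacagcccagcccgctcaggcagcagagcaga
Capitals mark the letters TGACCTTGACC in *Oxt*, which begin 171 bases before the start, and the E-box letters CACGTG in *Avp*, which begin 165 bases before it. The letters were chosen with the sequences in view. Searched on both strands, TGACCTTGACC stood in 7 of 33469 windows of the same length (0.0209%) and CACGTG in 5.59%. The shorter letters TGACCT, a core element of nuclear receptor binding sites that overlaps the marked letters, stood in 14.1% of windows and at 2 places in the *Oxt* window. The palindrome GGTCANNNTGACC, the letters of an estrogen response element, stood in 0.0239% of windows and in none of the *Oxt*, *Avp* and *Hcrt* windows. Only exact matches to the palindrome were searched, with N standing for any base. The marked *Oxt* letters, together with the bases just before them, come close to that palindrome without matching it. Such imperfect copies were not counted, and how common they are among the windows was not tested. A match is a description of the sequence, not of binding.

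*Oxt* was the most abundant of the 4 genes, and nearly all of its UMIs came from a handful of neurons. In Control, 2 barcodes held 39513 and 37442 *Oxt* UMIs, which was 36.2% and 34.4% of all RNA counted in them, and the next 4 held 377, 308, 200 and 181. In SC300, 6 barcodes held 47808, 40868, 34247, 30630, 23669 and 22404 *Oxt* UMIs. Another 4 SC300 barcodes held 9239, 5457, 3343 and 3302, followed by 717, 565, 46 and 23. The SC300 library thus held 10 barcodes with over 1000 *Oxt* UMIs and the Control library 2. A barcode was counted as high for a gene when it held at least 20 UMIs of it that made up at least 0.1% of its UMIs, and 6 Control and 14 SC300 barcodes were high for *Oxt*. Scrublet called 2 of the 14 SC300 barcodes as doublets and none of the 6 Control barcodes.

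**Figure D1:**
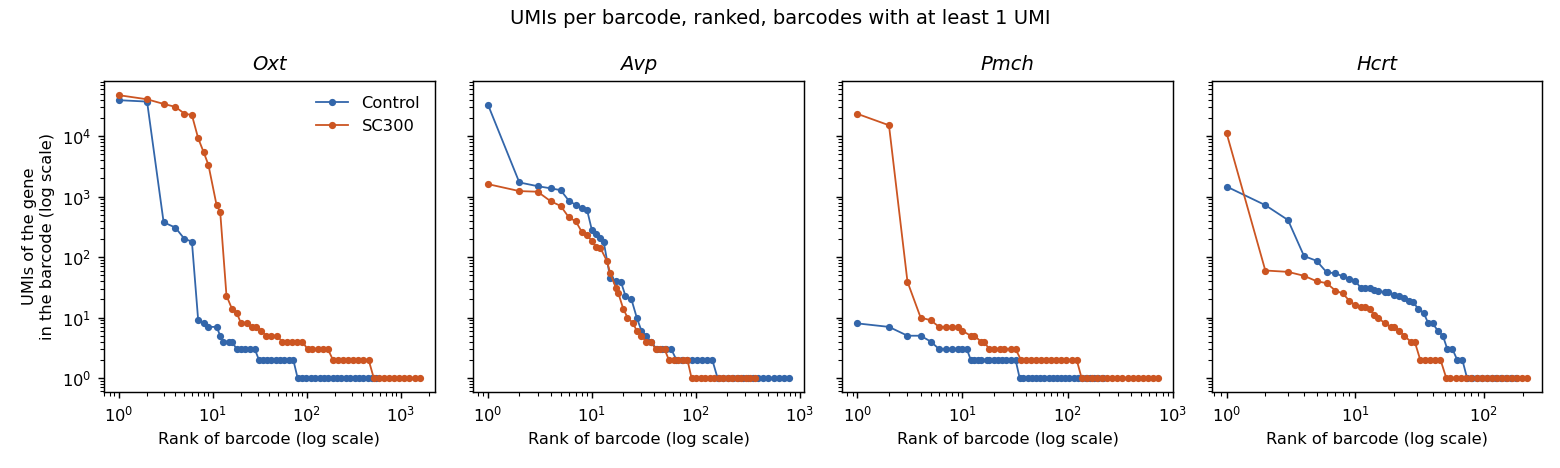
UMIs of each peptide gene (log scale) in the barcodes that hold at least 1, ranked from the highest (rank, log scale), with Control in blue and SC300 in orange and 1 library per group. In Control the *Oxt* curve drops from 37442 UMIs at the second barcode to 377 at the third, and the Control *Pmch* curve starts at 8 UMIs.

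The barcodes with over 1000 *Oxt* UMIs held UMIs of several, but not all, of the genes listed as partners of *Oxt*. All of them, 2 in Control and 10 in SC300, held UMIs of *Sim1*, a transcription factor needed for paraventricular and supraoptic neurons, and of *Pdyn*, the precursor of dynorphins. They also held *Cartpt*, the precursor of CART peptides, which was listed as a partner of *Pmch* and not of *Oxt*. *Cartpt* stood at 1010 and 773 CPM in the *Oxt*-high barcodes of Control and SC300, against 555 and 1012 CPM in the other neurons. In SC300 those other neurons included 2 that were high for *Pmch* and rich in *Cartpt*, described below. SC300 neurons that were not *Pmch*-high, with the *Oxt*-high ones kept in, stood at 540 CPM. *Sim1* reached 83.7 CPM in the *Oxt*-high barcodes of Control and 104 CPM in those of SC300, against 6.40 and 3.81 CPM in the other neurons. *Cck*, the precursor of cholecystokinin, reached 678 and 516 CPM there, against 63.1 and 148 CPM. *Slc17a6*, the vesicular glutamate transporter of many hypothalamic neurons, was found in both Control barcodes and in 9 of the 10 of SC300, and *Slc32a1*, the vesicular GABA transporter, in none of them. The level of *Slc17a6* was lower in the *Oxt*-high barcodes (63.5 and 48.1 CPM) than in the other neurons (118 and 143 CPM). *Otp*, a transcription factor of neuroendocrine neurons, had UMIs in 1 barcode per library (of 2 in Control, of 10 in SC300). *Magel2* had 0 UMIs in the 6 and 14 *Oxt*-high barcodes and was found in 3.71% and 3.42% of the other neurons. *Scg2*, a granin of secretory granules, was lower in the *Oxt*-high barcodes (77.9 and 50.2 CPM) than in the other neurons (1101 and 1452 CPM). Of the *Oxt*-high barcodes, 3 of 6 in Control and 4 of 14 in SC300 passed no gate, and 1 in Control held under 1000 UMIs in total. Levels in the *Oxt*-high barcodes are therefore not those of gated neurons alone.

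Every barcode with over 1000 *Oxt* UMIs also held *Avp* UMIs, from 9 to 42 in Control and from 1 to 390 in SC300 (medians 25.5 and 19.5). Barcodes that were not high for *Avp* held 0.244 *Avp* UMIs each in Control and 0.134 in SC300. The coding sequences of both genes share a stretch that is nearly identical, and reads that match 2 genes are uncertain. The SC300 barcode with 47808 *Oxt* UMIs held 5 *Avp* UMIs, so that the *Avp* count there was small beside the *Oxt* count. In the other direction, the Control barcode with 32991 *Avp* UMIs held 181 *Oxt* UMIs, while the next, with 1721 *Avp* UMIs, held 0.

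More barcodes were high for *Avp* than for *Oxt* in both libraries. At least 1 *Avp* UMI was found in 787 Control and 372 SC300 barcodes, against 551 and 1591 for *Oxt*. In Control 1 barcode decided the *Avp* total. That barcode held 32991 *Avp* UMIs (27.0% of its RNA), which was 75.1% of all *Avp* UMIs of the library, and the next Control barcodes held 1721, 1491, 1375, 1282, 855, 729, 647 and 591. In SC300 the highest counts were 1612, 1237, 1208, 842, 702, 454, 390 and 260. Below the top barcode the Control and SC300 counts overlapped. High for *Avp* were 20 Control and 16 SC300 barcodes, and only 13 and 7 of these passed the neuron gate. The barcodes just below the gate, with 3 of the 6 neuron genes, numbered 110 in Control and 141 in SC300 and held 1191 and 4043 *Avp* UMIs. Those just inside it, with 4 neuron genes, numbered 131 and 122 and held 6603 and 1962.

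The *Avp*-high barcodes fell into those with and those without UMIs of *Gad1*, an enzyme of GABA synthesis. In Control 12 of the 20 had *Gad1*, with 23 to 1721 *Avp* UMIs (median 688), and in SC300 7 of the 16 had it, with 54 to 1612 (median 454). Barcodes of this kind were rich in *Rgs16*, a regulator of G-protein signalling known from the suprachiasmatic nucleus, at 1424 CPM in Control and 1480 CPM in SC300, against 12.6 and 10.9 CPM in neurons that were not *Avp*-high. They also held *Six6*, a transcription factor of the suprachiasmatic nucleus, at 170 and 319 CPM against 36.2 and 30.8 CPM, and the clock gene *Per2* at 245 and 134 CPM against 12.2 and 11.1 CPM. *Prok2*, a secreted signal of the clock, was found in 4 of these 12 Control and 3 of these 7 SC300 barcodes, but in 0 of 367 and 2 of 354 other neurons. *Rgs16*, *Six6*, *Per2* and *Prok2* were chosen after their values were seen. *Vip*, the peptide of another group of suprachiasmatic neurons, had 5 UMIs in all of Control and 2 in all of SC300.

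*Avp*-high barcodes without *Gad1* numbered 8 in Control and 9 in SC300. The Control barcode with 32991 *Avp* UMIs was among them and was also high for *Oxt*. It held 280 *Pdyn*, 12 *Sim1*, 11 *Slc17a6* and 0 *Gad1* UMIs. In SC300, 3 of the 9 were also high for *Oxt* (390, 230 and 144 *Avp* UMIs beside 5457, 9239 and 30630 *Oxt* UMIs) and held *Sim1*, *Pdyn* and *Slc17a6*. Both libraries thus held *Avp* barcodes with *Gad1* and *Rgs16*, while a barcode with over 10000 *Avp* UMIs occurred in Control only. With 1 such barcode, its presence in Control was not tested.

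*Pmch* differed most between the libraries because Control held no *Pmch*-high barcode. The highest Control counts were 8, 7, 5, 5 and 4 UMIs, and 215 barcodes shared the 274 *Pmch* UMIs of the library. In SC300, 2 barcodes held 23477 and 15190 UMIs (20.5% and 16.8% of their RNA), and another barcode held 39. The first of these had 3100 and the second 2441 UMIs of *Cartpt*, 33 and 33 of *Tacr3*, a tachykinin receptor, 31 and 38 of *Gad1*, and 21 and 23 of the synaptic gene *Nptx1*. *Cartpt* thus reached 25764.5 CPM in the *Pmch*-high barcodes, against 540 CPM in the other neurons of SC300, and *Tacr3* 307 CPM against 10.3 CPM. *Nptx1* reached 209 CPM against 36.3 CPM. Other genes on the partner list were not higher there. *Gad1* stood at 320 against 332 CPM and *Slc17a6* at 60.4 against 137 CPM. *Adcyap1* stood at 0 against 68.6 CPM and *Slc32a1* at 0 against 188 CPM. The Control barcode with 8 *Pmch* UMIs held 0 UMIs of *Cartpt* and of *Tacr3*.

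*Hcrt* UMIs came mostly from 1 neuron in SC300 and from 3 barcodes in Control. The SC300 barcode held 11247 *Hcrt* UMIs (94.2% of those of the library) with 372 UMIs of *Nptx2*, a synaptic protein known from orexin neurons, 166 of *Pdyn* and 629 of *Scg2*. The 3 Control barcodes held 1470, 724 and 411 *Hcrt* UMIs with 14, 1 and 5 *Nptx2* UMIs and 15, 2 and 2 *Pdyn* UMIs. Mitochondrial genes made up 44.3%, 27.3% and 20.9% of the UMIs of these Control barcodes and 14.1% of those of the SC300 barcode, and what this means for their counts was not tested. *Lhx9* and *Rfx4*, also listed as partners of *Hcrt*, had 0 UMIs in all 4 barcodes, and were found in 0% of the other neurons of both libraries. *Slc17a6*, another listed partner, stood at 13.1 CPM in the *Hcrt*-high barcodes of Control and 90.9 CPM in those of SC300. In the other neurons it stood at 117 and 136 CPM. The *Hcrt*-high barcodes numbered 9 and 3, of which 5 and 2 were in the ependymal gate. Their *Slc17a6* level is therefore not that of neurons alone. The next *Hcrt* counts, 104 and 87 in Control and 60 in SC300, were in barcodes of the ependymal gate and are described below.

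Over all barcodes, *Oxt* was 2.60-fold higher in SC300 than in Control (3941 against 1513 CPM, log2 ratio 1.38 (1.37 to 1.39)) and *Hcrt* was 2.84-fold higher (209 against 73.7 CPM, 1.51 (1.45 to 1.56)). *Pmch* was 132-fold higher (695 against 5.27 CPM, 7.04 (6.87 to 7.22)). *Avp* was 5.81-fold higher in Control (845 against 145 CPM, -2.54 (-2.57 to -2.51)). Of 13200 genes with at least 100 UMIs in both libraries together, 0.614% were over 2-fold higher and 0.773% over 2-fold lower in SC300, and the median log2 ratio was -0.04. All 4 peptide genes were past 2-fold, but their levels were what they were chosen for, and nothing is read from that count. The intervals do not include the sampling of neurons. Without the single highest barcode of each library the log2 ratio was 2.04 for *Oxt*, -0.85 for *Avp* and 5.79 for *Pmch*, and that of *Hcrt* turned to -1.91.

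Among neurons *Oxt* stood at 203 UMIs per barcode in Control and 604 in SC300, *Avp* at 110 and 7.81, *Pmch* at 0.0763 and 108, and *Hcrt* at 4.11 and 31.3. The log2 ratios of the CPM were 1.50 (1.48 to 1.51), -3.89 (-3.95 to -3.84), 10.4 (9.86 to 10.96) and 2.86 (2.78 to 2.93). Past 2-fold in neurons were 0.835% (higher) and 2.06% (lower) of 9578 genes. For *Avp* the ratio depended on the gate, with -2.71 when 3 neuron genes sufficed and -5.43 when 5 were needed. Barcodes with exactly 3 neuron genes held 1191 *Avp* UMIs in Control and 4043 in SC300. Those with exactly 5 held 35209 and 676, the former including the Control barcode with 32991. In barcodes outside every gate *Avp* was 2.69-fold higher in SC300 (377 against 140 CPM, log2 ratio 1.43 (1.35 to 1.51)). For *Hcrt* in neurons, weighting every barcode alike gave 0.28, leaving out barcodes above 20% mitochondrial UMIs gave 7.20, and leaving out the highest barcode gave -0.49. The neuron gate took 1 of the 9 *Hcrt*-high barcodes of Control, and 3 passed no gate. In SC300 it took 1 of 3, and 0 passed no gate. In barcodes outside every gate *Hcrt* was higher in Control (135 against 17.8 CPM, log2 ratio -2.93 (-3.13 to -2.73)).

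Except for *Pmch* in Control, the 4 genes were concentrated in fewer barcodes than the median of the other neuropeptides. The 5 highest barcodes held 98.9% of the *Oxt* UMIs in Control and 78.9% in SC300, and 88.5% and 67.6% of the *Avp* UMIs. For *Hcrt* they held 72.9% and 95.9%, and for *Pmch* 10.6% and 97.7%. Among the other neuropeptides of a fixed list the share had a median of 46.3% over 18 genes in Control and 48.8% over 19 genes in SC300. It ran from 20.9% and 21.2% for *Adcyap1*, the precursor of PACAP, to 99.2% and 99.3% for *Npvf*, the precursor of RFamide-related peptides, for which 1 barcode per library held 856 and 2702 UMIs. *Sst* (somatostatin), with 50 and 55 high barcodes, needed 7 and 8 barcodes for 50% of its UMIs, whereas *Oxt* needed 1 and 3.

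Away from these barcodes *Oxt* was counted in each of the 8 non-neuronal types compared at less than 1 UMI per barcode. *Oxt* averaged 0.136 (0.123 to 0.1504) UMIs per non-neuronal barcode in Control and 0.452 (0.429 to 0.477) in SC300. Over 8 types (mural, endothelial, ependymal, microglia, astrocytes, oligodendrocyte precursors, newly formed and mature oligodendrocytes) it ran from 0.0962 in mural cells to 0.152 in mature oligodendrocytes in Control, a 1.58-fold range. In SC300 it ran from 0.319 to 0.628 in the same types, a 1.97-fold range. These levels are per barcode at unequal depth, and shares at equal depth are given below. Each of the 8 types was higher in SC300. *Oxt* was detected in 11.6% of non-neuronal Control barcodes, where no barcode held more than 8 UMIs, and in 32.5% of those of SC300, with the same maximum of 8.

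*Pmch* was also counted in non-neuronal barcodes of both libraries, although Control held no *Pmch*-high barcode. It averaged 0.0563 (0.0481 to 0.0656) UMIs in Control and 0.174 (0.160 to 0.190) in SC300, and its highest counts were 5 and 9. Control neurons, at 2.44 CPM, were below the non-neuronal barcodes, at 5.70 CPM, and 5.00% of them had a *Pmch* UMI against 4.72% of non-neuronal barcodes, although their median depth of 28685.5 UMIs was above that of every non-neuronal type (4783.5 to 19731.5). Per barcode, Control neurons held 0.0763 *Pmch* UMIs, and CPM fell with depth in these libraries, as described below. No expression of *Pmch* in Control neurons is read from these values. In non-neuronal barcodes *Pmch* was 2.96-fold higher in SC300 (16.9 against 5.70 CPM), against 132-fold over all barcodes.

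*Avp* averaged 0.178 (0.163 to 0.194) UMIs in non-neuronal Control barcodes and 0.115 (0.103 to 0.127) in SC300. In Control no barcode of these types held more than 10 UMIs, while in SC300 an astrocyte-gated barcode held 85 and an endothelial-gated barcode 31. The log2 ratio of the CPM was -0.70 (-0.90 to -0.50), and without *Avp*-high barcodes -1.28. Over the 8 types it ran from -3.01 (-4.93 to -1.56) in the ependymal gate, from 53 Control and 4 SC300 UMIs, to 0.32 (-2.11 to 2.74) in mural cells, from 4 UMIs in each library. In the astrocyte and endothelial gates, which held those barcodes, it was -0.23 (-0.53 to 0.06) and -0.24 (-0.78 to 0.29). For *Oxt* the non-neuronal log2 ratio was 1.67 (1.51 to 1.83) and for *Pmch* 1.57 (1.31 to 1.83). Over 2-fold higher in these barcodes were 0.681% and over 2-fold lower 1.07% of 11893 genes.

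**Figure D2:**
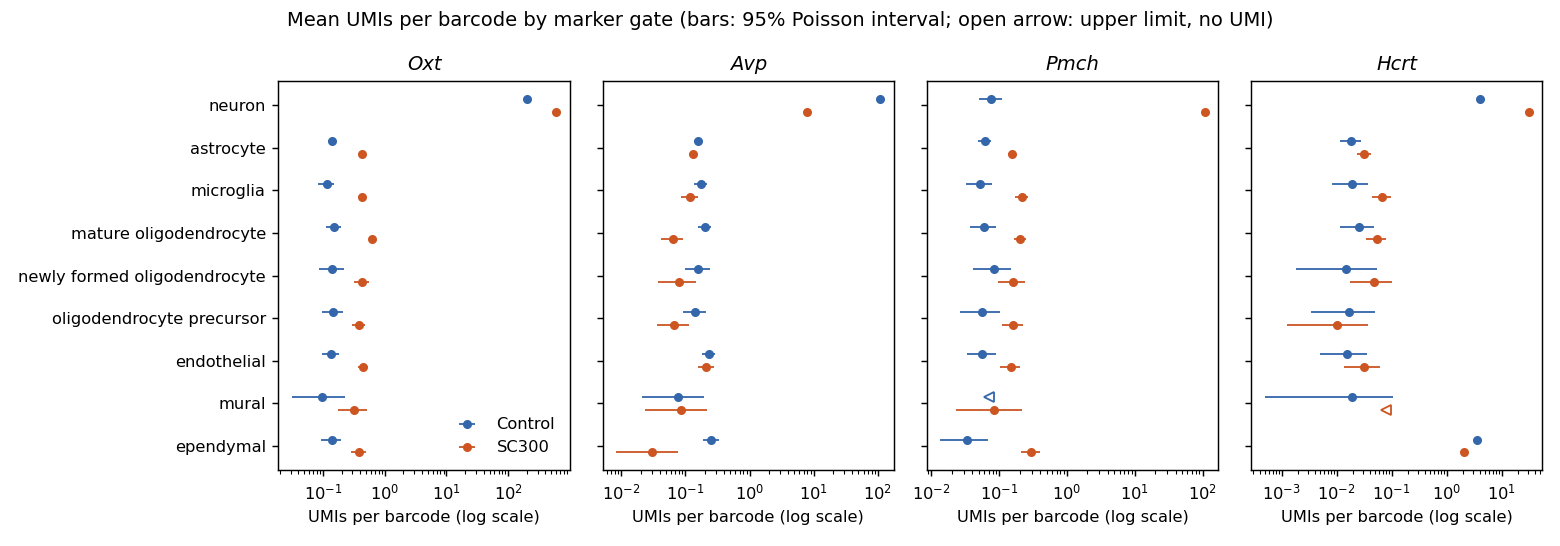
Mean UMIs per barcode (log scale) of each peptide gene in neurons and 8 non-neuronal gates, with Control in blue and SC300 in orange, 1 library each; bars are 95% Poisson intervals and an open arrow is the upper limit where no UMI was counted. *Oxt* in non-neuronal gates lies between 0.0962 and 0.152 in Control and between 0.319 and 0.628 in SC300, and *Hcrt* stands apart in the ependymal gate at 3.52 and 2.05.

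UMIs per barcode grew more slowly than the depth of the barcode. In non-neuronal Control barcodes outside the ependymal gate *Oxt* went from 0.0512 UMIs per barcode at a median depth of 1606.5 UMIs to 0.233 at 23874.5, and its CPM went from 32.4 down to 8.63. In SC300 it went from 0.271 to 0.704 per barcode, and from 159 down to 25.5 CPM. *Pmch* in Control was nearly flat, from 0.0472 to 0.0698 per barcode, and went from 29.9 down to 2.59 CPM. *Avp* in Control went from 0.0433 to 0.295 per barcode. Barcodes with under 200 detected genes, which numbered 192 in Control and 145 in SC300, held 0.0729 and 0.372 *Oxt* UMIs each, or 22.5 and 86.7 CPM. On the CPM scale the deep types therefore appeared lowest, with *Oxt* at 7.25 CPM in mature oligodendrocytes and 24.4 CPM in oligodendrocyte precursors of Control.

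**Figure D3:**
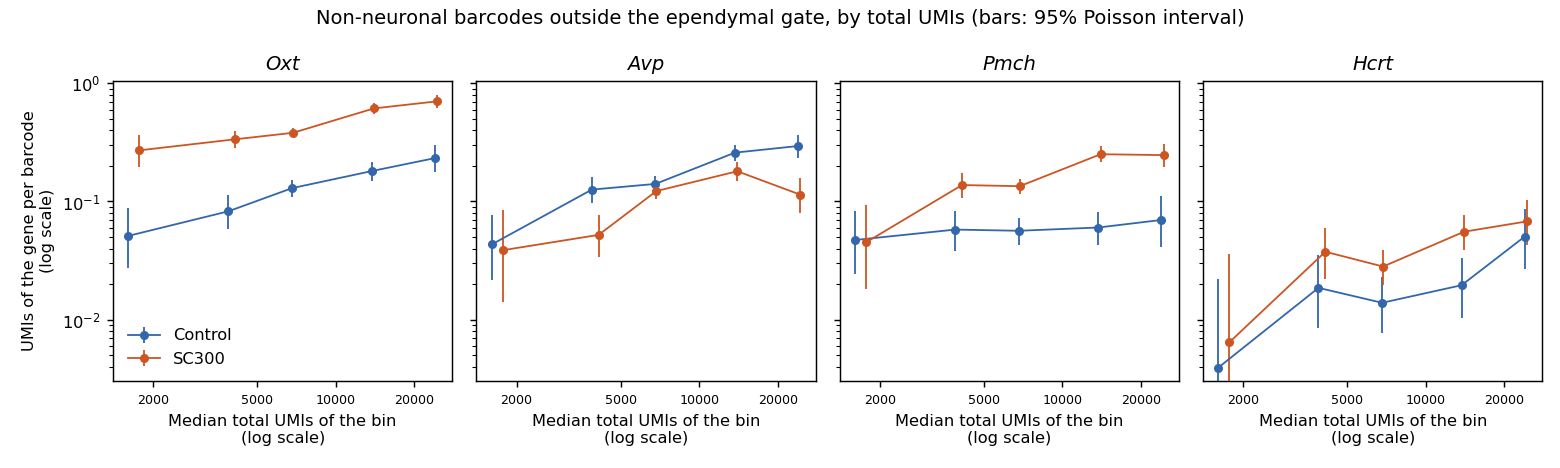
Mean UMIs of each peptide gene per barcode (log scale) against the median total UMIs of the barcodes in 5 bins of depth (log scale), for non-neuronal barcodes outside the ependymal gate; bars are 95% Poisson intervals, which run past the lower edge for the first bins of *Hcrt*. SC300 *Oxt* lies above Control *Oxt* in every bin, from 0.271 against 0.0512 in the shallowest to 0.704 against 0.233 in the deepest.

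At equal depth, *Avp* was found in a larger share of neurons than of non-neuronal barcodes in both libraries. For *Oxt* and *Pmch* the share of neurons was not higher. Their direction is not read, because the *Oxt* intervals overlapped and the *Pmch* shares of neurons rest on few barcodes. These shares are descriptions, because barcodes of 1 library are not replicates. Each barcode was thinned to 2000 UMIs, which left out 195 of 2948 non-neuronal barcodes in Control and 104 of 3053 in SC300, and 0 and 1 neurons. *Avp* was then found in 7.63% (5.17 to 10.8) of Control neurons and in 3.56% (2.90 to 4.32) of non-neuronal barcodes, and in SC300 in 5.56% (3.43 to 8.45) and 1.80% (1.35 to 2.34). Before thinning these shares were 39.2% and 15.3% in Control and 22.7% and 5.86% in SC300. *Oxt* was found in 1.58% (0.58 to 3.40) of thinned Control neurons and in 3.27% (2.64 to 4.00) of non-neuronal barcodes, with intervals that overlapped. The unthinned shares were 20.8% and 11.6%, higher in neurons. Neurons were deeper than each non-neuronal type compared, and UMIs per non-neuronal barcode grew more slowly than depth. If the same held in neurons, thinning would lower their share more, which was not tested. In SC300 the thinned *Oxt* shares were 8.33% (5.69 to 11.7) and 10.1% (9.07 to 11.3), and the unthinned shares 60.1% and 32.5%. By type, the thinned *Oxt* share in Control ran from 0.288% in mature oligodendrocytes to 4.82% in oligodendrocyte precursors. The lowest share rests on very few barcodes of 1 seeded draw, and no difference between types is read from it. Before thinning, Control mature oligodendrocytes held 54 *Oxt* UMIs and had the highest share of the 8 types, 13.8%. In SC300 it ran from 6.15% in the ependymal gate to 11.8% in endothelial cells. *Pmch* gave 1.05% and 1.78% in Control and 2.78% and 3.76% in SC300, also without a higher share in neurons. *Hcrt* was found in 1.05% (0.288 to 2.67) of thinned Control neurons and 1.11% (0.304 to 2.82) of those of SC300, against 1.34% (0.948 to 1.85) and 0.916% (0.604 to 1.33) of non-neuronal barcodes. Without the ependymal gate the non-neuronal *Hcrt* shares were 0.431% (0.215 to 0.770) and 0.603% (0.352 to 0.964). These were lower than the shares of neurons, with intervals that overlapped. The number of *Oxt*-expressing neurons can therefore not be read from the share with a UMI.

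The proportions of the 4 genes to one another were compared between non-neuronal types of a library. Of their summed UMIs in 7 types without the ependymal gate, *Oxt* made up 30.5% to 50% in Control, lowest in endothelial and highest in mural cells, the latter from 10 UMIs. *Avp* made up 39.1% to 53.2%. In SC300 *Oxt* made up 52.2% to 66.1%, *Pmch* 17.4% to 25.8% and *Avp* 6.64% to 25.1%, the last highest in the endothelial gate. There 1 *Avp*-high barcode held 31 of the 53 *Avp* UMIs, and in the astrocyte gate 1 held 85 of 183. Both barcodes are also part of the *Avp* proportion over all non-neuronal barcodes of SC300. Over all non-neuronal barcodes outside the ependymal gate the proportions were 35.4% *Oxt*, 44.7% *Avp*, 15.1% *Pmch* and 4.83% *Hcrt* in Control, and 58.3%, 15.2%, 21.6% and 4.99% in SC300. They were not those of the neurons, where *Oxt* made up 64.0% and 80.5% and *Avp* 34.7% and 1.04%. In SC300, however, only 34.0% of the *Avp* UMIs lay in the neuron gate, against 95.3% in Control. Over all barcodes *Avp* made up 34.7% in Control and 2.91% in SC300. Droplets without a called cell were not analysed here, and whether free RNA gave the non-neuronal UMIs was not tested.

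*Hcrt* was counted far more often in the ependymal gate than in the 7 other non-neuronal types. In Control that gate held 736 *Hcrt* UMIs in 209 barcodes (3.52 (3.27 to 3.79) per barcode, 244 CPM), and the 7 other types ranged from 0.0150 to 0.0253 per barcode. In SC300 it held 270 UMIs in 132 barcodes (2.05 (1.81 to 2.30) per barcode, 148 CPM), against 0.0668 in the next type, microglia. The share with an *Hcrt* UMI was 27.3% (21.4 to 33.9) in Control and 21.2% (14.6 to 29.2) in SC300, and after thinning to 2000 UMIs 12.9% (8.63 to 18.4) and 7.69% (3.75 to 13.7), against 0.431% and 0.603% in the other non-neuronal barcodes. Counts reached 104 in Control and 60 in SC300, and 19 and 8 barcodes held at least 10. In the same barcodes *Oxt* (0.139 and 0.386), *Avp* (0.254 and 0.0303) and *Pmch* (0.0335 and 0.295 UMIs per barcode) stayed far below *Hcrt*.

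Within the gate *Hcrt* went with the ciliated ependymal markers. It had 731 of its 736 Control UMIs and 268 of its 270 SC300 UMIs in barcodes with *Tmem212*, a marker of ependymal cells, which numbered 159 and 104. The 50 Control barcodes without *Tmem212* held 5 *Hcrt* UMIs and the 28 of SC300 held 2. Barcodes without *Crym*, a marker of tanycytes that line the floor of the ventricle, held *Hcrt* in 68.4% (54.8 to 80.1) of 57 barcodes in Control and 43.2% (27.1 to 60.5) of 37 in SC300. Those with *Crym* held it in 11.8% (7.17 to 18.1) of 152 and 12.6% (6.70 to 21.0) of 95. Of 31 Control barcodes with at least 10 *Tmem212* UMIs and no *Crym* UMI, 29 held *Hcrt* (16.6 UMIs per barcode), and of 24 such SC300 barcodes 16 did (7.83 UMIs per barcode). These are deep barcodes, with medians of 27045 and 14659 UMIs. *Tmem212* and *Crym* were paired after their values were seen. Whether the *Hcrt* UMIs of these barcodes came from the *Hcrt* transcript or from another transcript of the same region cannot be told apart from counts per gene.

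**Figure D4:**
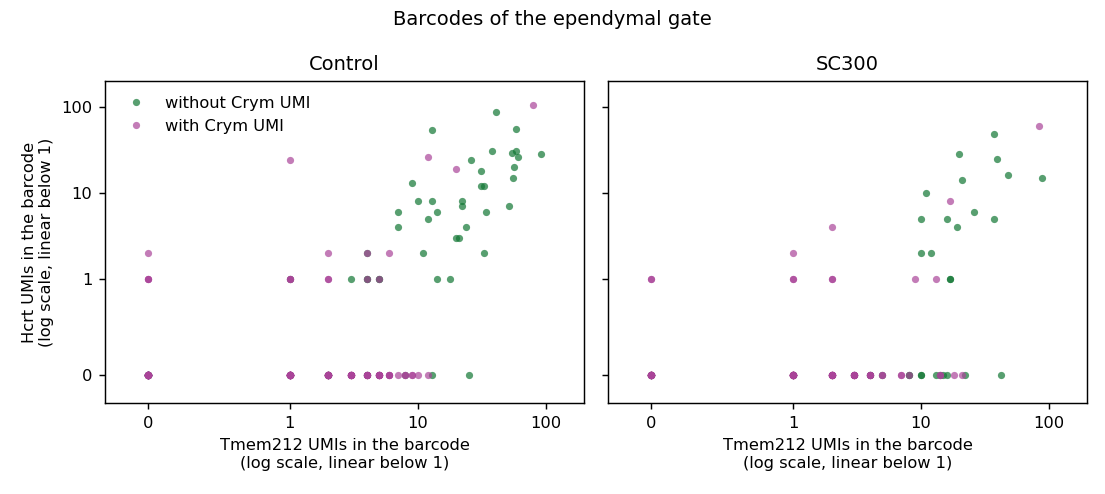
*Hcrt* UMIs against *Tmem212* UMIs in each barcode of the ependymal gate (both axes on a log scale, linear below 1), Control left and SC300 right; green points have no *Crym* UMI and purple points have at least 1. Most barcodes with 10 or more *Hcrt* UMIs also hold 10 or more *Tmem212* UMIs, and counts reach 104 in Control and 60 in SC300.

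Because of the ependymal gate the direction of *Hcrt* in non-neuronal barcodes depended on which types were counted. With it *Hcrt* was lower in SC300 (12.2 against 27.0 CPM, log2 ratio -1.15 (-1.33 to -0.97)), and without it higher (3.84 against 1.95 CPM, 0.97 (0.49 to 1.48)). The ependymal gate alone gave -0.72 (-0.93 to -0.52). It was also smaller in SC300, with 132 against 209 barcodes. Outside it *Hcrt* stood at 0.0186 (0.0139 to 0.0245) UMIs per barcode in Control and 0.0390 (0.0322 to 0.0469) in SC300, where 1 microglia-gated barcode held 11.

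The level in neurons was set against the level in non-neuronal barcodes for the 4 genes, the neuron genes, the other neuropeptides and 11 genes of peptide processing and secretory granules. *Oxt* was 8.88 (8.74 to 9.02) log2 units higher in neurons in Control and 8.71 (8.63 to 8.78) in SC300, beside 5.82 to 8.36 and 5.83 to 8.54 for the 5 neuron genes that had non-neuronal UMIs. The place of *Oxt* among these genes depended on the setting. Without the ependymal gate *Oxt* stood at 8.83 and 8.68 and *Snhg11* at 10.1 and 9.63, and without the highest barcode *Oxt* stood at 7.86 and 8.37. *Avp* stood at 7.61 and 4.41, *Pmch* at -1.23 (-1.85 to -0.65) and 7.59, and *Hcrt* at 2.28 and 6.28, or 6.07 and 7.95 without the ependymal gate. The neuropeptides of the list had medians of 6.85 over 18 genes and 7.08 over 19 genes, with *Pomc*, the precursor of melanocortins, lowest at 2.18 and 3.73. *Pomc* also had the highest level in non-neuronal barcodes, at 0.775 and 0.218 UMIs each, followed by *Gal* (galanin) at 0.195 and 0.184. This order of *Pomc* and *Gal* depended on the ependymal gate in SC300 but not in Control. Without that gate *Pomc* stood at 0.245 and 0.144 UMIs and *Gal* at 0.207 and 0.190, and the log2 ratio of *Pomc* was 3.79 and 4.30. A low level in non-neuronal types was thus not particular to the 4 genes. The neuron genes reached 0.141 and 0.122 UMIs per non-neuronal barcode for *Stmn2* and 0.102 and 0.114 for *Snap25*, but the gate admitted at most 1 neuron gene per barcode. Without the ependymal gate *Stmn2* stood at 0.0862 and 0.0948.

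**Figure D5:**
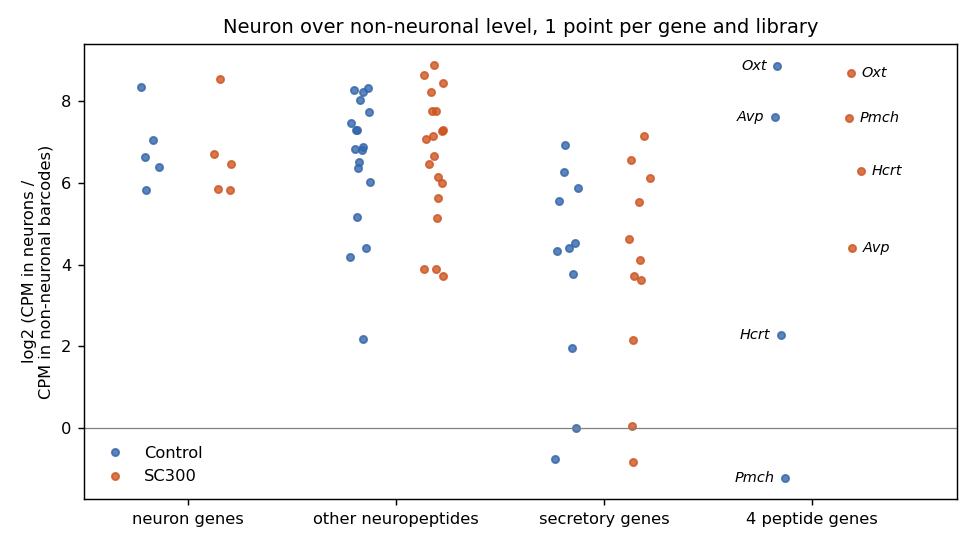
Log2 ratio of the CPM in neurons to the CPM in non-neuronal barcodes for genes with at least 100 UMIs in these barcodes, by list, with Control in blue and SC300 in orange, 1 point per gene and library. *Oxt* lies at 8.88 and 8.71, whereas *Pmch* lies at -1.23 in Control and at 7.59 in SC300.

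Of the 11 genes that process or package peptides, 0 were over 2-fold higher and 0 over 2-fold lower in SC300 over all barcodes, where 0.614% and 0.773% of all 13200 genes were. They had a median log2 ratio of -0.09 and a range from -0.28 for *Pcsk2*, a prohormone convertase, to 0.18 for *Scg2*. Of 19 other neuropeptides, 3 were over 2-fold higher and 5 over 2-fold lower in SC300, beside the same 0.614% and 0.773% of all genes, and they ran from -2.59 for *Trh* (thyrotropin-releasing hormone) to 3.89 for *Grp* (gastrin-releasing peptide), with a median of 0.13. The receptors were scarce. *Oxtr*, the oxytocin receptor, had 2 UMIs in each library, and *Avpr1a*, a vasopressin receptor, 210 in Control and 149 in SC300 (log2 ratio -0.63 (-0.94 to -0.32)). *Mchr1*, the receptor of melanin-concentrating hormone, had 216 and 236 UMIs, and the orexin receptors *Hcrtr1* and *Hcrtr2* had 125 and 124, and 156 and 172. For *Hcrtr1* the log2 ratio was -0.14 (-0.51 to 0.23) and for *Hcrtr2* 0.01 (-0.31 to 0.33), so that neither difference was detectable at this depth.

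The genes with the most similar pattern over 18 groups (neurons and 8 non-neuronal types of both libraries, log2(CPM + 1)) were, for *Oxt*, *Cck* (Pearson correlation 0.969), *Prlr* (0.964) and *Krt71* (0.962). For *Avp* they were *Tac3* (0.918), *Crh* (0.902) and *Th* (0.901). For *Pmch* they were *Grp* (0.809), *S100g* (0.714) and *Rln1* (0.689), each with more UMIs in SC300 (243 against 15, 3198 against 104 and 365 against 64). For *Hcrt* they were *Tmem215* (0.961), *Cnksr1* (0.952) and *Krt18* (0.944). The groups of 1 library share its depth and its captured neurons, so these values are a description.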

How the data were processed

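Hypothalamic cells of 1 Control and 1 SC300 library (3 rats pooled in each) were measured by 3′ single-cell sequencing. The authors aligned reads to the Ensembl rat transcriptome with Cell Ranger (version 3.0.1 per the labels), called cells and deposited raw UMI counts per gene and barcode, with 0 columns left unmapped. The authors' text does not say whether a merging step changed the counts. The 4 genes and all lists were chosen with earlier results of these data known. No tool was run on reads. Starting from the deposited counts, UMIs were summed over marker-gated barcodes and scaled to CPM, or thinned to 2000 UMIs per barcode (1 seeded draw). Exact 95% intervals were computed. Barcodes under 200 genes and doublets called by Scrublet (84 of 4296 in Control, 79 of 4379 in SC300) were kept in. Named were the 4 genes, gate and list genes at the ends of a range, partner genes and the 3 most similar genes (at least 200 UMIs). Similarity was the Pearson correlation of log2 values. Of the listed genes, *Foxj1*, *Lhfpl3*, *Pcsk1n* and *Gnrh1* were not used. Alternatives changed gates, scaling, depth, doublets, a mitochondrial limit of 20% and the highest barcode. Alternatives leaving out the ependymal gate or barcodes high for a gene were chosen after seeing the data. Sums were checked on simulated data. Computation used scipy 1.17.1, scanpy 1.11.5, numpy 2.4.6, matplotlib 3.10.9 and pandas 2.3.3 in Python 3.11.15. Promoter sequences are from RefSeq (GRCr8), a build the counts did not use, in which 3 of the 4 genes had an entry.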

Additional observations from a re-analysis of the deposited data

How the results depend on the processing

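Over 180 alternatives, 84 values moved by less than their counting interval, 91 moved by more and 5 changed direction. The changes of direction all concerned *Hcrt*. Log2 ratios of SC300 over Control come first.

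Over all barcodes, the median of ratios as scaling gave 1.42 for *Oxt* and -2.50 for *Avp*, and scaling to UMIs outside the ribosomal protein, mitochondrial and haemoglobin genes gave 1.40 for *Oxt*. Without called doublets the ratios were 1.33 (*Oxt*) and -2.62 (*Avp*), and with at most 20% mitochondrial UMIs 1.33 (*Oxt*), -2.77 (*Avp*), 7.51 (*Pmch*) and 3.55 (*Hcrt*). Without the highest barcode they were 2.04 (*Oxt*), -0.85 (*Avp*), 5.79 (*Pmch*) and -1.91 (*Hcrt*, direction changed).

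In neurons, a gate of 3 neuron genes gave 1.46 (*Oxt*), -2.71 (*Avp*), 9.69 (*Pmch*) and 2.73 (*Hcrt*), and a gate of 5 gave 1.06 (*Oxt*) and -5.43 (*Avp*). Without called doublets the values were 1.46 (*Oxt*) and -4.11 (*Avp*), and with the mitochondrial limit 1.44 (*Oxt*), -4.10 (*Avp*) and 7.20 (*Hcrt*). Every barcode weighted alike gave 1.64 (*Oxt*), -2.92 (*Avp*), 8.63 (*Pmch*) and 0.28 (*Hcrt*). Without the highest barcode they were 2.18 (*Oxt*), -2.50 (*Avp*), 9.52 (*Pmch*) and -0.49 (*Hcrt*, direction changed).

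In non-neuronal barcodes, allowing 3 neuron genes gave 2.22 (*Oxt*) and -0.94 (*Hcrt*), and allowing none gave -1.11 (*Avp*) and -1.44 (*Hcrt*). *Avp* was -1.07 without the highest barcode and -1.28 without high barcodes, and *Hcrt* was -0.81 without high barcodes and 0.97 (direction changed) without the ependymal gate.

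The log2 level of neurons over non-neuronal barcodes, with 3 neuron genes, was 8.73 (*Oxt*, Control), 8.52 (*Oxt*, SC300), 5.48 (*Avp*, SC300), 7.38 (*Pmch*, SC300) and 6.07 (*Hcrt*, SC300). With 5 it was 9.29 (*Oxt*, Control), 7.77 (*Avp*, Control), 3.04 (*Avp*, SC300), 7.94 (*Pmch*, SC300), 2.63 (*Hcrt*, Control) and 6.63 (*Hcrt*, SC300). With no neuron gene in non-neuronal barcodes it was 4.83 (*Avp*, SC300), 2.54 (*Hcrt*, Control) and 6.84 (*Hcrt*, SC300), and without the ependymal gate 6.07 and 7.95 (*Hcrt*). Without the highest barcode it was 7.86 and 8.37 (*Oxt*), 5.39 and 3.58 (*Avp*), 6.27 (*Pmch*, SC300), and -1.82 and -1.16 (*Hcrt*, direction changed in both libraries).

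The share held by the 5 highest barcodes, with neurons only, was 99.9% and 81.3% (*Oxt*, Control and SC300), 92.8% and 81.7% (*Avp*), 51.7% and 99.6% (*Pmch*) and 98.8% and 99.6% (*Hcrt*). Ranked by share of the barcode's UMIs it was 92.8% and 55.7% (*Oxt*), 67.5% and 77.4% (*Avp*), 14.9% and 81.1% (*Pmch*) and 80.8% and 74.4% (*Hcrt*).

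The share of non-neuronal barcodes with a UMI, thinned to 1000 UMIs, was 1.86% and 5.90% (*Oxt*), 2.00% and 0.923% (*Avp*), 0.828% and 2.24% (*Pmch*) and 0.931% (*Hcrt*, Control). Thinned to 5000 it was 7.31% and 19.6% (*Oxt*), 9.28% and 2.91% (*Avp*), 3.06% and 8.35% (*Pmch*) and 2.70% and 2.37% (*Hcrt*), in fewer and deeper barcodes. For *Hcrt* it was 0.431% and 0.603% without the ependymal gate.

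Apart from fewer barcodes or other depths by construction, the cause of these changes was not tested. No paired analysis was possible because each group has 1 library and the libraries share only 1 replicate number. Few captured neurons carried the counts: 1 or 2 barcodes set the totals of *Oxt* and *Avp* in Control and of *Pmch* and *Hcrt* in SC300. Gates rest on few detected genes, and counts under 3 UMIs per group carry little information.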

Other observations

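Other genes of the fixed lists were also high in the ependymal gate. *Hcrt* itself stood there at 244 CPM in Control and 148 CPM in SC300, against 131 and 950 CPM in neurons. *Lhb*, known as the beta subunit of luteinizing hormone, was highest in that gate in both libraries, at 68.0 CPM in Control (205 UMIs) and 52.0 CPM in SC300 (95 UMIs), against 3.87 and 0.42 CPM in neurons. *Pomc* was also highest there in Control, at 536 CPM (1614 UMIs), against 355 CPM in neurons, while in SC300 it was highest in neurons at 279 CPM. *Pam*, a gene of peptide processing, was highest in the ependymal gate in both libraries, at 371 and 475 CPM. In neurons *Pam* stood at 347 and 332 CPM. The other pituitary hormone genes were nearly absent, with 0 UMIs of *Prl* in both libraries and 1 of *Gh1* in each. The role of the ependymal barcodes in these counts was not tested.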
